A study of Mus musculus with 6 samples.

Results

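The genes described here are those of major histocompatibility complex (MHC) class II antigen presentation, in livers taken at the age of 2 yr from WT and CgA-KO mice. They are 10 of the 32212 rows of the gene count table, taken by symbol: the class II chains H2-Aa, H2-Ab1 and H2-Eb1, the invariant chain Cd74, the peptide exchange genes H2-DMa, H2-DMb1 and H2-Oa, the transactivator Ciita, and the costimulators Cd80 and Cd86. All 10 rows were found and all 10 passed the filter on low counts. Chromogranin A (CgA) is a prohormone of neuroendocrine cells, and CgA-KO mice lack it. All mice were males on the C57BL/6 background on a normal chow diet, and each genotype gave 3 livers, from which poly(A)-selected RNA of a whole piece was sequenced, 1 library a mouse. The libraries held from 10558616 counts (WT replicate 1) to 31087453 counts (WT replicate 2). Chga, the knocked-out gene, had 0 counts in every library of both genotypes and so could not check the genotype labels. Of 7 hepatocyte markers tested edgeR called 0 (1 had an unadjusted p-value under 0.05, and DESeq2 called 1). Over all genes tested edgeR called 8.60% higher and 3.84% lower, and 7 markers are too few to be set apart from these shares. A liver piece contains hepatocytes together with resident and passing immune cells, so more cells of a type and more RNA per cell cannot be told apart in these data.

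MHC class II molecules show peptides from engulfed material to CD4 T cells. An alpha and a beta chain pair in the endoplasmic reticulum with the invariant chain (CD74), which plugs the groove and guides the complex to the endosome. There proteases cut the plug down, H2-DM swaps the remaining fragment for antigenic peptide, and H2-O holds H2-DM back. CIITA is the master switch that turns on these genes by docking on factors bound at their promoters, and CD80 and CD86 give the second signal that T cells need. In liver, class II is carried by Kupffer cells (the resident macrophages), dendritic cells, B cells and, at a low level, sinusoidal endothelium.

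The class II genes were higher in CgA-KO livers as a group. By the quasi-likelihood test of edgeR, 8 of these 10 genes had an adjusted p-value under 0.05, all 8 higher in CgA-KO, while 8.60% of the 13867 genes tested were called higher and 3.84% lower. The median log2 fold change of the 10 genes was 2.61, against -0.01 over all genes tested. Ciita and Cd80 were the members that did not pass the test. For all 10 genes each CgA-KO library lay above each WT library, a separation in this direction that 19.0% of the genes tested showed. DESeq2, the tool that the study used, called all 10 members higher, against 10.8% of the genes that it gave an adjusted p-value. With 3 livers on each side, the exact permutation test (two-sided) of a single value can reach no p under 0.1. Levels below are CPM, counts scaled to a common library total that was adjusted by TMM (edgeR's trimmed mean), given as mean ± SD over 3 livers, and the standard error (SE) of a log2 fold change is an approximation from its F statistic.

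The classical chains rose by between 5.65- and 6.68-fold. H2-Aa encodes the alpha chain of the I-A molecule and lies on chromosome 17 of GRCm38 from 34282744 to 34287823. WT replicates 1, 2 and 3 held 59.1, 17.1 and 10.7 CPM of it, and CgA-KO replicates 1, 2 and 3 held 269.5, 138.2 and 167.9 CPM. In proportion the WT livers spread more than the CgA-KO livers, with WT replicate 1 far above the other two. The means were 28.99 ± 26.3 and 191.9 ± 68.9 CPM, a log2 fold change of 2.74 (SE 0.60, edgeR adjusted p = 0.0209). H2-Ab1, the beta chain that pairs with it, lies on chromosome 17 from 34257689 to 34269419. It stood at 44.1, 15.7 and 7.12 CPM in the WT livers and at 175.5, 106.1 and 91.4 CPM in the CgA-KO livers. Replicate 1 was again the highest library of either genotype, while the lowest CgA-KO liver was replicate 3 and not replicate 2. Its log2 fold change was 2.50 (SE 0.59, edgeR adjusted p = 0.0269).

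H2-Eb1, the beta chain of the I-E molecule, lies on chromosome 17 from 34305867 to 34316674. It stood at 43.3, 13.5 and 9.62 CPM in WT livers against 166.7, 112.4 and 103.0 CPM in CgA-KO livers. The genotypes were again apart, and the log2 fold change was 2.54 (SE 0.52, edgeR adjusted p = 0.0175). C57BL/6 mice carry a defective gene for the I-E alpha chain, and the row H2-Ea had 0 counts in all 6 libraries, which allows up to 0.269 CPM in the shallowest of them. H2-Eb1 RNA was thus measured in livers in which RNA of its partner chain was not detectable at this depth.

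**Figure D1:**
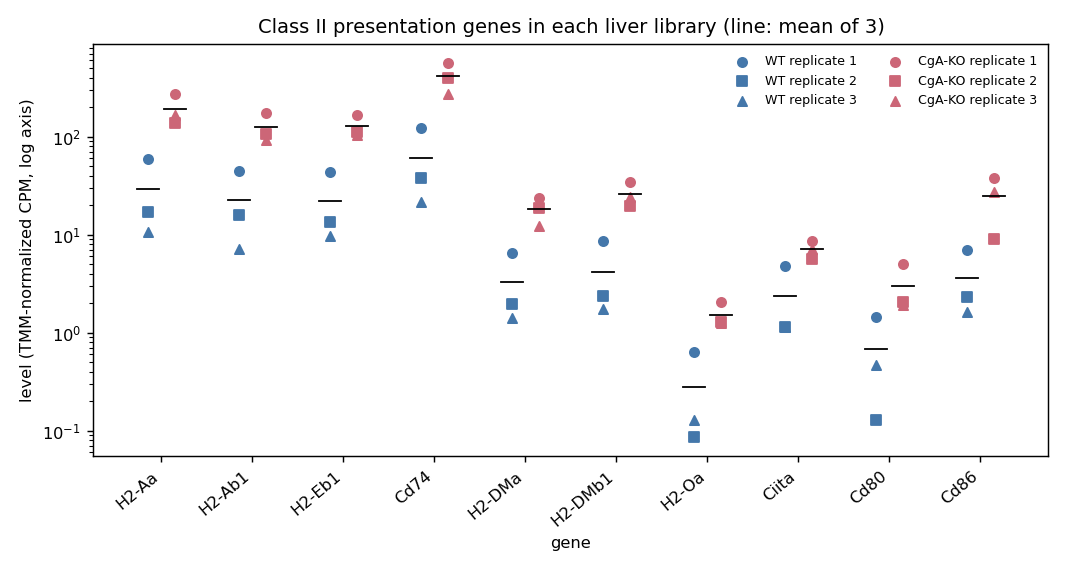
Level of each of the 10 genes in each library (TMM-normalized CPM on a log axis), WT in blue and CgA-KO in red, with the replicate number as the symbol and a line at the mean of 3 livers. In every gene the 3 CgA-KO points lie above the 3 WT points, and WT replicate 1 and CgA-KO replicate 1 are the highest points of their genotype.

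Cd74 encodes the invariant chain and had the highest level of the 10 genes. It lies on chromosome 18 of GRCm38 from 60803848 to 60812652, away from the chains that its protein binds. WT livers held 123.7, 37.7 and 21.4 CPM of it, and CgA-KO livers 567.3, 392.9 and 273.2 CPM in CgA-KO livers. The lowest CgA-KO liver was well above the highest WT liver. The means were 60.9 ± 54.97 and 411.1 ± 147.9 CPM, a log2 fold change of 2.76 (SE 0.61, edgeR adjusted p = 0.0219).

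All 3 peptide exchange genes rose. H2-DMa, the alpha chain of H2-DM, lies on chromosome 17 from 34119541 to 34139101 and held 6.45, 1.96 and 1.398 CPM in WT against 23.6, 18.8 and 12.3 CPM in CgA-KO livers. Its log2 fold change was 2.55 (SE 0.54, edgeR adjusted p = 0.0188). H2-DMb1, one of the 2 beta chains that can pair with it, lies on chromosome 17 from 34153072 to 34160230. WT livers held 8.51, 2.34 and 1.74 CPM and CgA-KO livers 34.4, 19.4 and 24.3 CPM, and the log2 fold change was 2.70 (SE 0.55, edgeR adjusted p = 0.0169). Both DM chains thus moved by a similar amount to the classical chains. H2-Oa, the alpha chain of the inhibitor H2-O, lies on chromosome 17 from 34092340 to 34095234 and was rare. It had 7, 2 and 3 counts in WT and 44, 40 and 28 counts in CgA-KO libraries, a log2 fold change of 2.66 (SE 0.71, edgeR adjusted p = 0.0426), and with so few WT counts the size of the fold is loosely fixed. Scaling by library size alone took its adjusted p to 0.0597.

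Ciita had the smallest log2 fold change of the 10 genes. It lies on chromosome 16 from 10480059 to 10528418, and WT livers held 4.75, 1.15 and 1.14 CPM against 8.68, 5.68 and 7.13 CPM in CgA-KO livers. The log2 fold change of 1.68 (SE 0.54) did not pass edgeR's test (adjusted p = 0.0777), and it passed without WT replicate 1 (2.67, edgeR adjusted p = 0.00199). The groups did not overlap, but WT replicate 1 came within 1 CPM of the lowest CgA-KO liver. Within each library the ratio of Ciita to H2-Ab1 was 0.11, 0.0784 and 0.171 in WT and 0.05, 0.0543 and 0.0789 in CgA-KO livers. These values overlapped (exact permutation test, p = 0.2, adjusted p = 0.2 over 4 ratios chosen after the values were seen). A smaller change than that of H2-Ab1 was thus not shown.

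Of the costimulators, Cd86 rose and Cd80 did not pass the test. Cd86, on chromosome 16 from 36603869 to 36666081, held 6.99, 2.30 and 1.61 CPM in WT against 37.7, 8.97 and 27.2 CPM in CgA-KO livers. CgA-KO replicate 2 was close to WT replicate 1. The log2 fold change of 2.83 (SE 0.64, edgeR adjusted p = 0.0241) was the largest of the 10 members in the fit to all 6 libraries. Cd80, on chromosome 16 from 38455561 to 38496335, had 16, 3 and 11 counts in WT and 108, 64 and 43 counts in CgA-KO libraries. Its log2 fold change was 2.28 (SE 0.76, edgeR adjusted p = 0.0843), and without WT replicate 1 it was 3.33 (edgeR adjusted p = 0.0189).

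Levels of different genes were compared per kilobase of the longest coding transcript in GENCODE. In CgA-KO livers Cd74 stood at 291.6 ± 104.9 CPM per kilobase, H2-Aa at 170.1 ± 61.1, H2-Ab1 at 102.6 ± 37.0 and H2-Eb1 at 76.3 ± 20.6. The SDs of neighbours overlap, yet the order Cd74, H2-Aa, H2-Ab1, H2-Eb1 held within each of the 6 libraries, WT included, where the means were 43.2, 25.7, 18.4 and 13.3 CPM per kilobase. H2-DMb1 followed at 18.6 ± 5.41 CPM per kilobase in CgA-KO livers, above H2-DMa at 9.09 ± 2.84 in every library. Cd86, at 9.70 ± 5.73, did not differ from H2-DMa beyond their spread. H2-Oa (1.399 ± 0.414), Ciita (1.19 ± 0.250) and Cd80 (0.942 ± 0.553 CPM per kilobase) formed the low end, and their order was not separable either.

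The libraries numbered 1 were the highest of their genotype for all 10 genes. WT replicate 1 was the highest WT library for all 10, with 3.58 to 5.91 times the mean CPM of WT replicates 2 and 3. Over all genes tested, WT replicate 1 was the highest WT library in 37.7%, with a median ratio of 1.00. CgA-KO replicate 1 was the highest CgA-KO library for all 10, and for 33.0% of all genes tested. The lowest CgA-KO library was replicate 2 for 4 members (H2-Aa, H2-DMb1, Ciita and Cd86) and replicate 3 for the other 6. Likeness of profiles was then measured over all 6 libraries, which includes the difference between the genotypes, so that genes of like fold change come out near. After centring each gene's log2 CPM on its own mean, the profile of Cd74 over the 6 libraries differed from that of H2-Ab1 by a root mean square of 0.191, H2-Eb1 by 0.204, H2-Aa by 0.232, H2-DMa by 0.244 and H2-DMb1 by 0.272. H2-Oa (0.476), Cd86 (0.577), Ciita (0.602) and Cd80 (0.778) lay farther off. Of the tested genes that are not members, the 6 nearest to H2-Ab1 were AI662270 (0.224), Cmklr1 (0.227), Cd300ld (0.236), Msr1 (0.268), Csf2rb2 (0.272) and Fabp7 (0.278). Cmklr1 encodes the chemerin receptor, Cd300ld a receptor of myeloid cells, Msr1 a scavenger receptor of macrophages and Csf2rb2 a beta subunit of the IL-3 receptor.

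Ratios of members within a library do not depend on how libraries are scaled, and 5 were compared besides that of Ciita. H2-Eb1 to H2-Ab1 had a mean log2 ratio of 0.06 ± 0.331 in WT and 0.06 ± 0.125 in CgA-KO livers (exact permutation test, p = 1, adjusted p = 1). Cd74 to H2-Ab1 was 2.80, 2.39 and 2.98 in WT and 3.23, 3.70 and 2.99 in CgA-KO livers. These values did not overlap (exact permutation test, p = 0.1, the smallest possible, adjusted p = 0.5 over the 5 ratios), though the gap between WT replicate 3 and CgA-KO replicate 3 was narrow. H2-Aa to H2-Ab1 overlapped between the genotypes (exact permutation test, p = 0.4, adjusted p = 0.667), as did H2-Oa to H2-DMa, the inhibitor against the exchanger (p = 0.4 and 0.667 by the same exact test), and Cd86 to Cd80 (p = 0.6 and 0.75 by the same exact test). With 3 livers a genotype no shift in a ratio, whatever its size, could pass this test at 0.05.

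The rest of the pathway was read from a list of 34 other genes, of which 29 were tested. Of these, 10 were higher and 1 was lower in CgA-KO livers in edgeR's test, 18 were not called, and the median log2 fold change was 0.97. Over all 13867 genes tested 8.60% were called higher and 3.84% lower, with a median of -0.01. Without WT replicate 2, or without WT replicate 3, 6 genes of the list were called. Calls over all genes fell from 1726 to 841 and 394 in these fits. Of 5 endosomal enzymes 3 rose. Ctss encodes cathepsin S, which cuts the invariant chain in antigen-presenting cells, and it rose from 31.97, 23.99 and 12.2 CPM to 165.3, 214.1 and 172.8 CPM, a log2 fold change of 3.02 (SE 0.35, edgeR adjusted p = 0.00322). Lgmn, another endosomal protease (log2 fold change 2.02, edgeR adjusted p = 0.00484), and Ifi30, the thiol reductase that opens disulfide bonds of antigens (2.22, edgeR adjusted p = 0.00778), also rose. Ctsl and Ctsb, broad lysosomal cathepsins, had log2 fold changes of 0.44 (edgeR adjusted p = 0.3345) and 0.98 (edgeR adjusted p = 0.0553) and were not called. Ctsl overlapped between the genotypes, whereas Ctsb did not and was called higher by DESeq2 (DESeq2 adjusted p = 0.00709).

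Genes that act on class II at the surface were also on that list. Marchf1 encodes the ubiquitin ligase that sends class II and CD86 to be degraded. It rose from 3.67, 1.11 and 0.974 CPM to 23.1, 17.7 and 18.2 CPM, a log2 fold change of 3.45 (SE 0.47, edgeR adjusted p = 0.00513). Its fold change was above that of each of the 10 members, but its ratio to H2-Ab1 overlapped between the genotypes (exact permutation test, p = 0.2, chosen after the values were seen). Cd83, which opposes that ligase, had a log2 fold change of 1.72 and was not called (edgeR adjusted p = 0.108). Of the other costimulators and coinhibitors, Cd40 (log2 fold change 1.96, edgeR adjusted p = 0.0305) and Cd274, which encodes the inhibitory ligand PD-L1 (2.63, edgeR adjusted p = 0.00597), rose, and Icosl was at 1.63 (edgeR adjusted p = 0.168). Pdcd1lg2 was not tested, with 0, 1 and 0 counts in WT and 12, 14 and 1 in CgA-KO libraries.

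Upstream of Ciita, genes of interferon gamma signalling were also on the list. The receptor chain Ifngr1 (log2 fold change 1.67, edgeR adjusted p = 0.00622) and the transcription factor Irf1 (0.97, edgeR adjusted p = 0.0162) rose, while Ifngr2, Jak1 and Jak2 were not called. The factors that sit on class II promoters were on the list as well. Of Rfx5, Rfxap, Rfxank, Nfya, Nfyb, Nfyc and Creb1 edgeR called 0 higher and 1 lower (2 of the 7 had an unadjusted p-value under 0.05, and DESeq2 called 1), and their log2 fold changes ran from -0.77 to 0.68. Over all genes tested 8.60% were called higher and 3.84% lower, and 7 genes are too few to be set apart from these shares. Nfyb, a subunit of the CCAAT-binding factor NF-Y, was called lower, from 26.2, 38.3 and 34.6 CPM to 16.5, 20.7 and 20.98 CPM (log2 fold change -0.77, SE 0.20, edgeR adjusted p = 0.0373). Of 4 T cell partners tested 1 was called higher and 3 were not called. The called gene was Cd28, the receptor of CD80 and CD86 (3.97, edgeR adjusted p = 0.0221), with 9.48 CPM in CgA-KO replicate 2 against 2.28 and 1.93 CPM in the other CgA-KO livers. Cd4 had a log2 fold change of 3.14 and overlapped (edgeR adjusted p = 0.0983), at 26.3, 1.97 and 16.5 CPM in the CgA-KO livers and 4.75 CPM in WT replicate 1. Icos (2.12, edgeR adjusted p = 0.162) and Lag3 (0.26, edgeR adjusted p = 0.774) overlapped as well, and Ctla4 and Cd40lg were too rare to be tested.

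**Figure D2:**
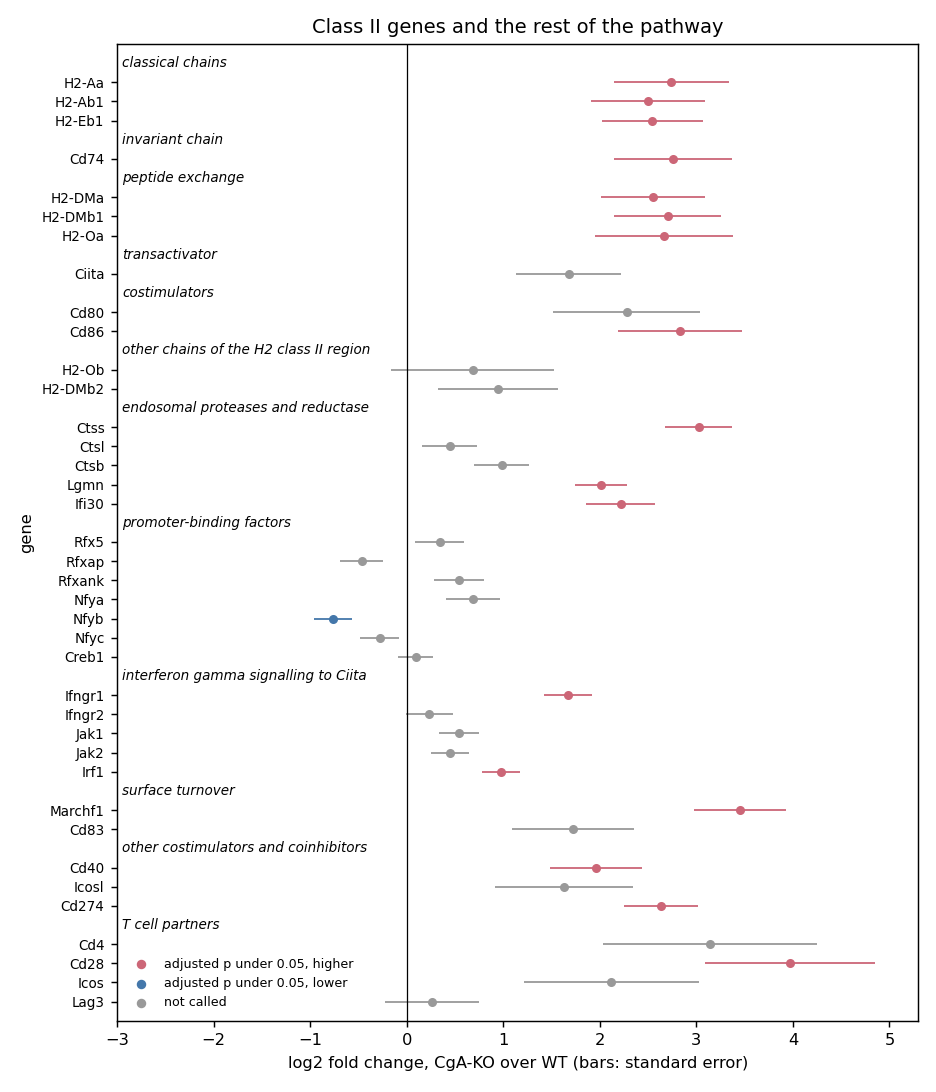
Log2 fold change of CgA-KO over WT with its standard error for the 10 genes and other tested genes of the pathway, grouped by role and coloured by edgeR's call at an adjusted p-value of 0.05. The chains, Cd74 and the exchange genes sit between 2.50 and 2.76, Ciita at 1.68, and the promoter-binding factors on both sides of 0.

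The class II loci offered a comparison of close neighbours. The 2 DM beta genes lie side by side on chromosome 17, and H2-DMb2, from 34143307 to 34151555, did not pass the test. It was at 6.09, 1.06 and 1.57 CPM in WT and 7.75, 5.04 and 3.36 CPM in CgA-KO livers, so that the genotypes overlapped (log2 fold change 0.95, SE 0.62, edgeR adjusted p = 0.354). The ratio of H2-DMb2 to H2-DMb1 was 0.719, 0.475 and 0.907 in WT and 0.228, 0.263 and 0.141 in CgA-KO livers, without overlap (exact permutation test, p = 0.1, the smallest possible, adjusted p = 0.2 over the 4 ratios chosen after the values were seen). The DM beta genes are close paralogs. Whether transcript quantification split reads between them was not tested.

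H2-Ob, the beta chain of H2-O, did not pass the test. It was at 7.70, 0.596 and 1.86 CPM in WT and 10.2, 2.51 and 3.00 CPM in CgA-KO livers (log2 fold change 0.68, SE 0.85, edgeR adjusted p = 0.643). The highest WT liver exceeded 2 of the 3 CgA-KO livers. Its ratio to H2-Oa overlapped between the genotypes (exact permutation test, p = 0.2, adjusted p = 0.2), so a difference from its alpha chain was not shown. Without WT replicate 1 the log2 fold change of H2-Ob was 2.10, and over all fits that left out 1 library it ran down to -0.23. H2-Eb2, with 6, 2 and 1 counts in WT and 16, 12 and 5 in CgA-KO libraries, was too rare to be tested.

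Between H2-Oa and H2-Eb2 the annotation places 14 protein-coding genes, 9 of them class II genes and 5 not. Of the class II genes 8 were tested and 6 were called higher. Of the 5 others, the class I pathway genes Psmb9 (log2 fold change 1.30), Tap1 (1.73) and Psmb8 (1.20) were called higher in edgeR's test, and Tap2 (0.90, edgeR adjusted p = 0.115) and Brd2, a chromatin reader (-0.10, edgeR adjusted p = 0.848), were not. Of the 3 coding genes on either side, 4 were tested and edgeR called 0 (1 had an unadjusted p-value under 0.05, and DESeq2 called 0), with Slc39a7 at -0.19, Rxrb at -0.08, Col11a2 at 0.83 and BC051142 at 2.50. Calls were thus not made for every gene of the stretch. The shares over all genes tested were 8.60% called higher and 3.84% called lower. The 4 tested genes on either side are too few to be set apart from these shares.

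**Figure D3:**
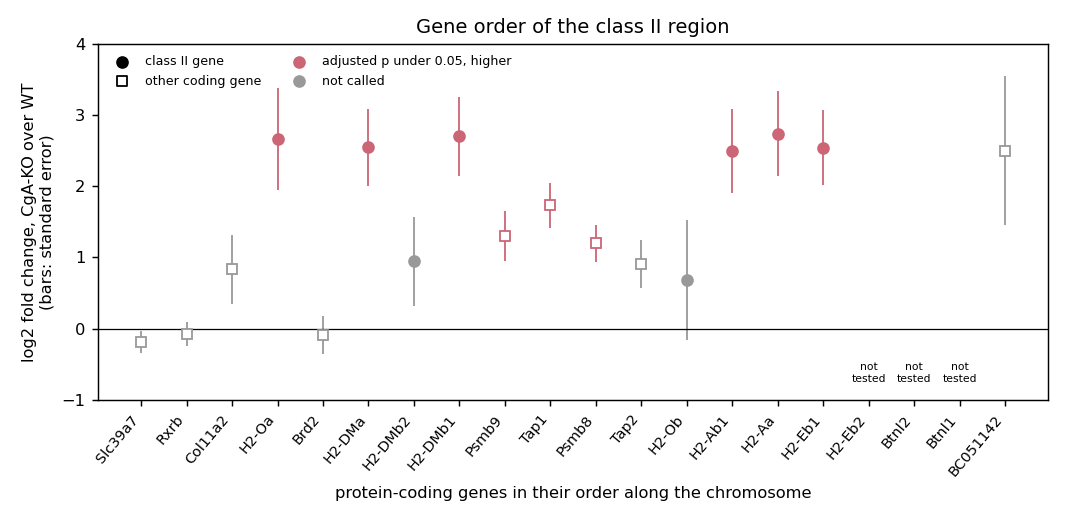
Log2 fold change of CgA-KO over WT with its standard error for the protein-coding genes of the class II region in chromosome order, filled circles for class II genes and open squares for others, red where edgeR called the gene higher. H2-DMb2 and H2-Ob, at 0.95 and 0.68, lie below the class II genes beside them, and Brd2 lies at -0.10.

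Class II promoters are known for a shared module, an X box bound by the RFX complex and a Y box bound by NF-Y, to which CIITA docks. RefSeq promoter windows of GRCm38.p6 were at hand for 6 of the 10 genes (H2-Aa, H2-Eb1, H2-DMa, H2-DMb1, H2-Oa and Cd80), and the 250 bases before the start site were searched on both strands. The letters searched were GNAAC, the core of the X box, followed after 20 to 30 bases by TGATTGG, the Y box, on the same strand, and they were chosen with these sequences in view. The pair was found in H2-Aa, H2-Eb1, H2-DMb1 and H2-Oa, and in 0.271% of all 32851 promoter windows. H2-DMa, which was called higher, and Cd80, which was not called, had neither TGATTGG nor the pair. TGATTGG alone was in 7.23% of the windows and GNAAC alone in 79.6%. Among genes that are not members, H2-Ob and H2-Eb2 had the pair. H2-DMb2 had both words, each counted on either strand, but not as the pair. The stretches are shown for the genes where they lie outside the GENCODE gene, with both words in capitals, so that promoters of genes that rose can be set beside those of genes that did not pass the test or were too rare for it.
H2-Aa: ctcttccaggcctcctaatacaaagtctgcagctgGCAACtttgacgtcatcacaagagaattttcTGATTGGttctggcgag
H2-Eb1: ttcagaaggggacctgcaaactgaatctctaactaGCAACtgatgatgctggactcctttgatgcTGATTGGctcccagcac
H2-Ob: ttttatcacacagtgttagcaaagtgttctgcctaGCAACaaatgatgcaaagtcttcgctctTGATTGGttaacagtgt
H2-Eb2: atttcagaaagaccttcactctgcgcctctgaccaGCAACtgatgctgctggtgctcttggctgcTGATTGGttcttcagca

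These stretches lie at chr17:34287857-34287939 on the minus strand for H2-Aa, and on the plus strand at chr17:34305741-34305822 for H2-Eb1, chr17:34238783-34238862 for H2-Ob and chr17:34325508-34325589 for H2-Eb2. The words were 26 bases apart in H2-Aa, H2-DMb1 and H2-Oa, 25 in H2-Eb1 and H2-Eb2 and 23 in H2-Ob. The pair was thus held both by H2-Aa and H2-Eb1, which rose, and by H2-Ob, which did not pass the test. It was not found for H2-DMa, which also rose. A match describes these letters only.

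Markers of the cell types that carry class II were read beside the members. The summed level of the 3 classical chains and Cd74 was 270.1, 84.0 and 48.8 CPM in WT and 1179, 749.6 and 635.5 CPM in CgA-KO livers. All 4 markers of leukocytes in general were called higher, and their summed level rose from between 19.7 and 68.2 CPM to between 199.0 and 390.5 CPM. Of 8 Kupffer cell markers 7 were called higher in edgeR's test, from a sum of 99.8 to 214.5 CPM in WT to a sum of 991.3 to 1411 CPM. Both sums were thus higher in CgA-KO livers, as the class II genes were. Among WT libraries replicate 1 had the highest sum for these lists and for the monocyte, T cell, dendritic cell and B cell lists. Among CgA-KO libraries the leukocyte sum was highest in replicate 2 (236.1, 390.5 and 199.0 CPM), unlike class II. The Kupffer cell sum was highest in replicate 1 (1411, 1369 and 991.3 CPM), as class II was, and so was the B cell sum. The T cell sum was highest in replicate 2, and the monocyte and dendritic cell sums were highest in replicate 3. Of 6 monocyte markers 3 were called higher, with sums of 44.7 to 131.8 CPM in WT and 291.6 to 476.3 CPM in CgA-KO livers. Of 7 T cell markers 5 were called higher, with sums of 2.43 to 11.5 and 25.8 to 157.1 CPM. Without WT replicate 2 edgeR called 1 of the 4 leukocyte, 6 Kupffer cell, 2 monocyte and 0 T cell markers, without WT replicate 3 it called 2, 6, 2 and 0, and without CgA-KO replicate 2 it called 2, 7, 3 and 2. In the fits with 0 T cell markers called, 5 had an unadjusted p-value under 0.05. Over all genes tested 8.60% were called higher with all 6 libraries. Calls over all genes in either direction fell from 1726 to 841, 394 and 976 in the 3 fits, in the same order. The part of these cell types in the class II result was not tested.

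B cell markers did not pass the test of genotype. Of the 8 edgeR called 0 (1 had an unadjusted p-value under 0.05, and DESeq2 called 1). That gene was Cd22 (log2 fold change 1.86, edgeR adjusted p = 0.0621). Their median log2 fold change was 0.08, but it was 2.30 without WT replicate 1, where edgeR called 2 of the 8 higher, and ran from -0.57 to 0.56 when any other library was left out, with 0 called and 1 at an unadjusted p-value under 0.05 in each of those fits. Their summed level was 65.0, 5.32 and 9.02 CPM in WT and 66.7, 25.3 and 15.3 CPM in CgA-KO livers, so that WT replicate 1 was as high as the highest CgA-KO liver. Of the 7 dendritic cell markers tested 2 were called higher, Flt3 (log2 fold change 2.23) and Itgax (2.05), against 8.60% of all genes tested. Not called were Ccr7 (3.04), Clec10a (2.13), Clec9a (1.46), Xcr1 (0.96) and Zbtb46 (-0.01). The list summed to 7.91 to 20.3 CPM in WT and 31.5 to 35.01 CPM in CgA-KO livers. Of the 7 markers, edgeR called 4 without WT replicate 1 and 0 without WT replicate 2, WT replicate 3 or CgA-KO replicate 2, where 3, 4 and 3 had an unadjusted p-value under 0.05. Of plasmacytoid dendritic cell markers only Bst2 was tested, at 0.07. Of 5 sinusoidal endothelial markers Lyve1 was called higher and Clec4g lower, and of 5 bile duct markers edgeR called 0 (1 had an unadjusted p-value under 0.05, and DESeq2 called 0).

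The class II sum was then divided by each marker sum in the same library. Relative to leukocyte markers it was 3.96, 3.68 and 2.48 in WT and 4.99, 1.92 and 3.19 in CgA-KO livers, a mean log2 difference of -0.08, with WT inside the range of CgA-KO. Relative to Kupffer cell markers it was 1.26, 0.768 and 0.489 in WT and 0.835, 0.547 and 0.641 in CgA-KO livers, also overlapping. Relative to B cell markers it was 4.15, 15.8 and 5.41 in WT and 17.7, 29.6 and 41.6 in CgA-KO livers, which did not overlap, and relative to dendritic cell markers it was 13.3, 10.6 and 4.38 against 35.6, 23.8 and 18.2, without overlap either. The log2 difference was 1.98 for B cell and 1.55 for dendritic cell markers, against 3.00 for the class II sum itself. These ratios are descriptions without a test.

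**Figure D4:**
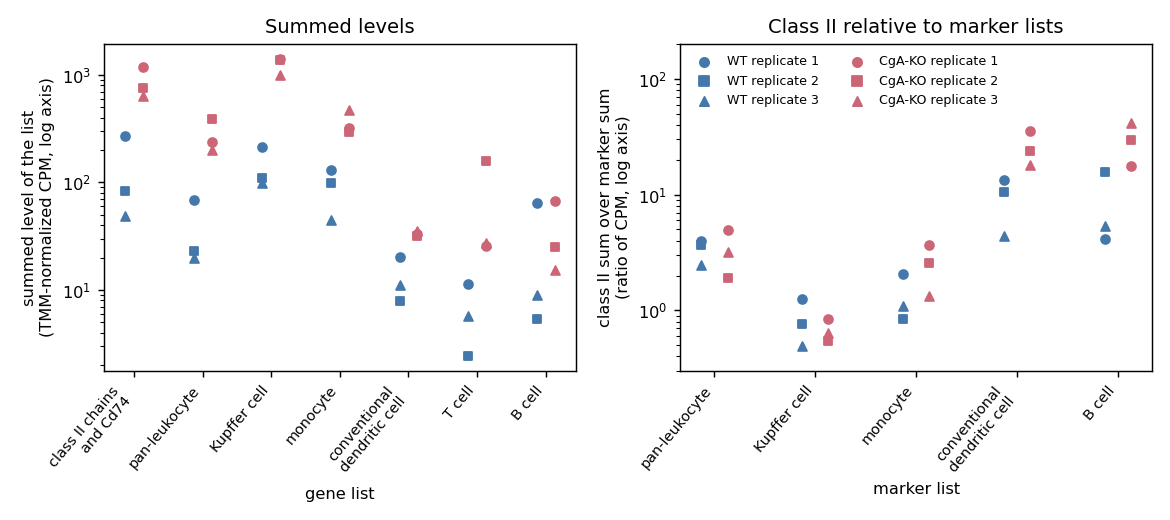
Left, summed level (TMM-normalized CPM, log axis) of the 3 classical chains with Cd74 and of 6 marker lists in each library. Right, the class II sum divided by 5 of the marker sums (ratio, log axis): the genotypes overlap for the leukocyte, Kupffer cell and monocyte lists and are apart for the B cell and dendritic cell lists.

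MHC class I genes, which present peptides from inside the cell and are made by hepatocytes as well, changed less. Of 9 genes of that pathway 3 were called higher in edgeR's test, against 8.60% of all genes tested, with a median log2 fold change of 0.90. Without WT replicate 2, or without WT replicate 3, edgeR called 0 of the 9 (5 and 4 had an unadjusted p-value under 0.05), and without CgA-KO replicate 2 it called 1. Calls over all genes fell from 1726 to 841, 394 and 976 in these fits. H2-K1 was at 0.78 (edgeR adjusted p = 0.186), H2-D1 at 1.19 (edgeR adjusted p = 0.0545) and B2m at 0.63 (edgeR adjusted p = 0.288). The CgA-KO library with the highest H2-K1 was replicate 2, with 2055 CPM against 1013 and 862.7 CPM, whereas class II was highest in replicate 1. The difference between the pathways was not tested.

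The calls of the class II genes rested on few livers. Without WT replicate 1 the median log2 fold change of the 10 genes was 3.60 and all 10 were called. Without WT replicate 2, without WT replicate 3 or without CgA-KO replicate 1 edgeR called 0 of the 10 (9 had an unadjusted p-value under 0.05 in each of these fits), and without CgA-KO replicate 2 it called 3. Calls over all genes fell too, from 1726 with all 6 libraries to 841, 394, 744 and 976 in these fits, in the same order. The fold changes of the 10 genes stayed positive whichever library was left out, from 1.32 for Ciita without WT replicate 3 to 3.84 for Cd74 without WT replicate 1. In a fit that kept every gene with a total of at least 1 count, edgeR called 1 of the 10, at fold changes close to those above. The called gene was H2-Oa (edgeR adjusted p = 0.0311), and all 10 had an unadjusted p-value under 0.05. Calls over all genes were 1620 of 19693 tested in that fit, so they fell little from 1726 while those of the members fell.

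**Figure D5:**
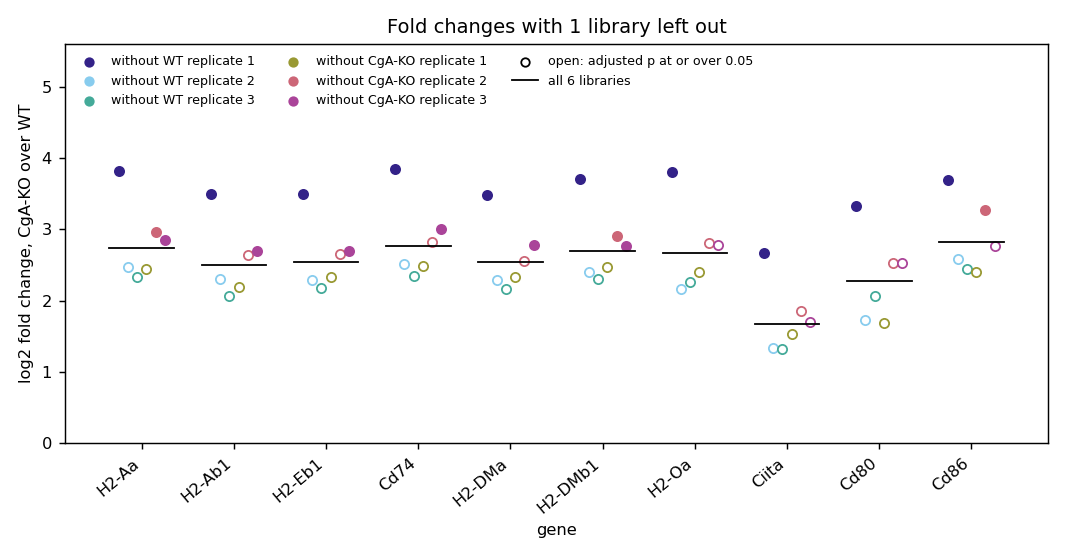
Log2 fold change of CgA-KO over WT for each of the 10 genes when 1 library is left out, with a line at the value from all 6 libraries and open circles where edgeR's adjusted p-value was 0.05 or more. The values without WT replicate 1 are the highest for every gene and are all filled.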

How the data were processed

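RNA was measured in livers from 3 mice of either genotype. Values are the deposited counts of the authors, who quantified reads at the transcript level with Salmon 1.4.0 against the GRCm38 transcriptome; how transcripts became genes is not given in the sources used here. Members and gene lists were chosen with earlier results of these data known. Genes were kept by filterByExpr of edgeR 4.0.16 (R 4.3.3, minimum count 10), scaled by TMM, and compared with robust quasi-likelihood fits on genotype alone, Benjamini-Hochberg adjusted over all genes tested. Log2 CPM and ratios used a prior count of 2. Floors are 3 counts, 0.0951 to 0.269 TMM-adjusted CPM, for counting error only. Alternatives were DESeq2 1.42.0, limma-voom (limma 3.58.1), other scalings and filters, a replicate block, an adjusted p of 0.01 and leaving out each library; 4 ratios and the marker lists with 1 library left out were added after the data were seen. Replicates of a genotype differed by more than sampling noise (chi-square per degree of freedom 29.9 to 190). Named genes were the 10 members, genes of the pathway, marker and class I lists, genes of the class II region, and the 6 nearest profiles to H2-Ab1. Some marker genes, such as Lyve1 and Clec4g, were named because they were called. Of the pathway list, 1 gene of the pathway list is counted but not reported here. Coordinates are from GENCODE M21, promoters from RefSeq. The scripts were tested on simulated data.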

Additional observations from a re-analysis of the deposited data

How the results depend on the processing

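All 148 refitted fold changes of the 10 genes were positive, from 1.32 to 3.84; 100 kept their side of the threshold, 40 lost a call and 8 gained one. Of the members, 8 were called in the fit as reported, 10 by DESeq2 and limma-voom, 7 with library size alone, 1 with a total of at least 1 count, 0 at an adjusted p of 0.01, and 0 to 10 with 1 library left out. Their median moved from 2.61 to between 2.22 and 3.60 with 1 library left out. Of the other pathway genes 11 were called, 6 at 0.01 and 6 to 13 with 1 library left out; of class I genes 3, with 5 by DESeq2, 0 at 0.01 and 0 to 4. Over all genes 1726 were called, with 2592 by DESeq2 and 1620 with a total of at least 1 count. At 0.01 there were 360, and with 1 library left out 394 to 2126. The cause was not tested. With library size alone, the median over all genes went from -0.01 to 0.26 (log2). The H2-Oa to H2-DMa difference turned from -0.32 to 0.0392 with a prior count of 0.5, and that of H2-Eb1 to H2-Ab1 from -0.003 to between -0.14 (without WT replicate 2) and 0.18 (without WT replicate 3) with 1 library left out, and was 0.06 without CgA-KO replicate 1. With at least 10 counts in every library, H2-Oa and Cd80 could not be tested. Over all genes the deviations of same-numbered livers correlated at 0.199, 0.0127 and -0.0659 for numbers 1, 2 and 3, and since not every pair was above 0.1 the numbers were not taken to pair the livers, though both livers numbered 1 were high for the 10 genes; with a replicate block, 10 members, 13 other pathway genes, 4 class I genes and 1498 genes in all were called, and the median was 2.80. Depth limits H2-Oa and Cd80, whose WT libraries held as few as 2 and 3 counts.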
